A study of Mus musculus with 2 samples.

Results

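The imprinted Snrpn-Ube3a cluster of mouse chromosome 7 was examined through 8 genes, Ube3a, Snhg14, Snrpn, Snurf, Ndn, Magel2, Mkrn3 and Peg12, of 55536 annotated genes in the deposited tables. They were chosen by gene symbol and found under 1 gene identifier each. The data are 2 libraries of total RNA sequencing. They come from hippocampal tissue of B6CASTF1/J males, hybrids of a C57BL/6 and a CAST strain, at an age of 36 days. Replicates 1 and 2 are 2 animals of 1 group, each prepared from 300 ng of RNA with ERCC spike-in RNA added, and the labels name no treatment, altered allele or other condition. The tissue label reads layer of hippocampus, and no layer is named. Levels sum both parental copies of each gene, and parental origin was not analysed here.

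Imprinted genes are transcribed mainly from 1 parental chromosome. In this cluster the paternal chromosome transcribes Snrpn, Snurf, Snhg14, Ndn, Magel2, Mkrn3 and Peg12, while Ube3a is made from both copies in most tissues and mainly from the maternal copy in mature neurons, where the end of the long Snhg14 transcript runs antisense through it. Loss of the paternal genes causes Prader-Willi syndrome in people, and loss of maternal UBE3A causes Angelman syndrome. Snhg14 is also the host RNA of tandem arrays of C/D box small nucleolar RNAs (snoRNAs), which guide methylation of other RNAs or pair with them.

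The arrays are shown by their most frequent copies, since no snoRNA had a value to report and their letters are what the annotation holds. Between the outermost members lie 210 snoRNA entries, all on the minus strand like Snhg14, with 87 distinct sequences of 67 to 94 bases. One family of 137 entries, the brain family known as Snord115, lies at chr7:59342226-59619095 (GRCm38, GENCODE M21), and 33 of its entries share the sequence below. Its capitals mark the 18 bases that are complementary to an exon of the serotonin receptor gene Htr2c, at chrX:147169689-147169706 on the plus strand.
Snord115 family: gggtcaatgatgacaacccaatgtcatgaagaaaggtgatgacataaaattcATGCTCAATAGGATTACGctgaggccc
Htr2c exon: CGTAATCCTATTGAGCAT
The complete 18-base stretch was present in 105 of the 137 copies. It was in none of the 1301 snoRNA entries annotated elsewhere, a description of the annotation and not a measurement of pairing. The other family, Snord116, has 71 entries at chr7:59673461-59923122, of which 30 share 1 sequence. Single copies of Snord64 and Snord107 lie nearer to Snrpn. In these 3 sequences the capitals mark the first TGATGA and the last CTGA on the transcribed strand, the letters of the C and D boxes.
Snord116 family: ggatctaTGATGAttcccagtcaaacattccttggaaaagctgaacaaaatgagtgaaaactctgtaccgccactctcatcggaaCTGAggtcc
Snord64: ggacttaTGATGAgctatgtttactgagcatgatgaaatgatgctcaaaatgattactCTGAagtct
Snord107: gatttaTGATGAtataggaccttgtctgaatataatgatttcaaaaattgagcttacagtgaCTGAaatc
TGATGA was present in 206 of the 210 entries and in 14.5% of the 1301 entries elsewhere, and CTGA in 208 of 210 and in 76.2%. All 210 entries had 0 counts in both libraries. The first transcript table gives an effective length of 0 to each of the 2454 entries of 99 bases or fewer and none of them has a count, so the 0 does not describe the amount of these RNAs.

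Snrpn and Snurf share their sequence. Snrpn encodes SmN, an Sm core protein of the splicing machinery in neurons, and Snurf is a short reading frame upstream in the same messenger RNA. The annotation gives Snurf a transcript of its own, Snurf-201, of 216 bases at chr7:59995449-60005049 on the minus strand. It has 3 exons and consists of the reading frame alone. All 216 bases lie within Snrpn-201, from its base 63 on, and also within Gm38393-201, a transcript of an overlapping minus-strand gene. The first 30 bases are printed because they hold all that separates Snurf from the other long Snrpn transcript, Snrpn-202. The capitals mark the 10 bases that Snrpn-202 lacks, and its remaining 206 bases are all in Snrpn-202.
Snurf-201, bases 1 to 30: ATGGAGCGAGgaagggatcgcttacacttg
Both Snrpn transcripts hold a coding sequence of 720 bases and differ in their first exons. Snrpn-201 starts at 60005111 and Snrpn-202 at 60140219. The 2 windows below, of 300 bases each, come from the RefSeq start nearest to each (GRCm38.p6), 88 bases from the Snrpn-201 start and 6 from the Snrpn-202 start, with each CG, the letters that DNA methylation acts on, in capitals.
Snrpn-201 window, chr7:60005150-60005449, minus strand: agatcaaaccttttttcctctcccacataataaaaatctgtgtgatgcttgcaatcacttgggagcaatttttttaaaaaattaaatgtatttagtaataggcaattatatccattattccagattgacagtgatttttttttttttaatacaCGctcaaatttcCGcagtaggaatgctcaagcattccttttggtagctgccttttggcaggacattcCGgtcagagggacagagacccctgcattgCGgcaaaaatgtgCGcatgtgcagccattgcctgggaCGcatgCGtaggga
Snrpn-202 window, chr7:60140176-60140475, minus strand: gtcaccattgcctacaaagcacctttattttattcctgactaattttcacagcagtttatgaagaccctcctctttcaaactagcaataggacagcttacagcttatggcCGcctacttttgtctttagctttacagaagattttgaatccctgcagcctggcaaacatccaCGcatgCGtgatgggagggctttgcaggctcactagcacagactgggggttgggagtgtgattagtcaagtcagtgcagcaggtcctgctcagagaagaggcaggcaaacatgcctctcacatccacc
The first window holds 7 CG and the second 3. Of the 32851 RefSeq windows of this length, 52.1% hold 7 or more and 76.7% hold 3 or more. The Ube3a window holds 29, a count that 12.9% of windows reach. The windows of Ndn, Magel2, Mkrn3 and Peg12 hold 10 to 15. CG reads the same on both strands, and the counts describe the letters, not methylation.

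The libraries hold 28665109 and 29633722 counts in annotated genes. Nothing in the labels says more of the animals than that they are separate, so differences between the libraries measure the spread between 2 samples. Of 8 hippocampal neuron markers, 8 reached 1 TPM (the level unit of the tables, corrected for transcript length) in both libraries, led by Camk2a at 1380 and Pcp4 at 110 TPM, and the lowest was C1ql2 at 29.3 TPM. Of 8 markers of the hypothalamus, 0 did, with Pomc highest at 0.840 and Avp at 0.350 TPM, and Sim1, Hcrt and Kiss1 had 0 counts in both. The 8 glial markers lay between 19.6 TPM for C1qb and 348 and 726 TPM for Aldoc and Mbp. The libraries differed in choroid plexus markers, whose summed level was 8.68 TPM in replicate 1 and 191 TPM in replicate 2. Ttr, Folr1, Aqp1, Clic6, Otx2 and F5 were apart by the test described below, all higher in replicate 2; Ttr was the highest of the list at 91.4 TPM on average, followed by Kl at 4.59 TPM, and Kcne2 was the lowest at 0.275 TPM. Of the 8 hippocampal markers 0 were apart, but their ratios of scaled counts, replicate 2 over replicate 1, ran both ways. Prox1 had 1.41, C1ql2 1.23, Pcp4 1.10, Camk2a 1.08 and Cpne4 1.06, while Neurod6 had 0.872, Fibcd1 0.851 and Wfs1 0.842. The part of these differences in the values that follow was not tested.

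The 8 genes fell into 2 ranges of level in the hippocampus. In the gene table, 5 of them reached 1 TPM in both libraries, as did 26.8% of all annotated genes and 57.8% of protein-coding genes. All members but Snhg14 are annotated as protein-coding. From highest to lowest by mean TPM the order was Snurf, Snhg14, Snrpn, Ube3a, Ndn, Magel2, Mkrn3 and Peg12. Together the 8 genes took 0.140% of the counts in replicate 1 and 0.134% in replicate 2.

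**Figure D1:**
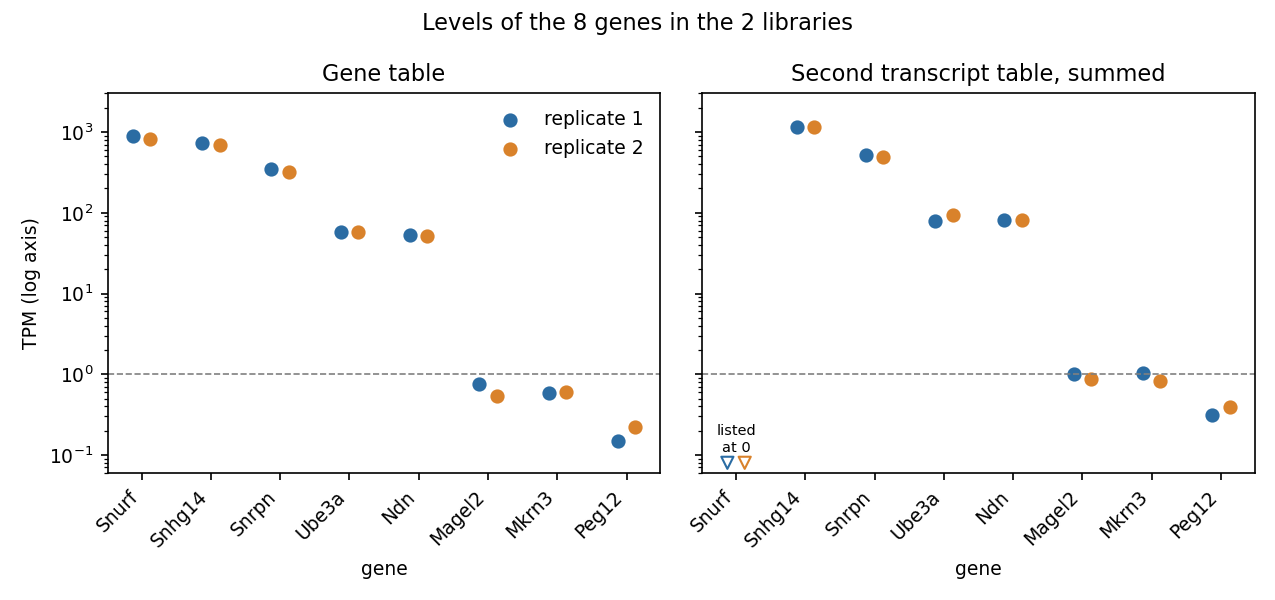
Levels in TPM on a log axis for the 8 genes, 1 point per library, in the gene table (left) and summed from the second transcript table (right); the dashed line is 1 TPM and open triangles mark values listed at 0. At left 5 genes sit above the line in both libraries and at right 4 do, with Mkrn3 above it in replicate 1 only and Snurf listed at 0.

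Snurf stood at 888 TPM (replicate 1) and 810 TPM (replicate 2), a mean of 849 ± 55.8 TPM (SD, n = 2). It exceeded Snhg14, the host RNA and antisense transcript, at 726 and 688 TPM (707 ± 26.8 TPM). The ranges of these neighbours did not overlap, but the Snurf level holds only in the gene table. In the second transcript table, which was made by another quantification of the same libraries, Snurf was listed at 0 in both and Snhg14 at 1148 TPM in both. Expected counts of Snurf were 2137 and 2043 with posterior standard deviations of 26.3 and 27.2. Snrpn had more, 13054 and 12824. The higher TPM of Snurf thus rests on its effective length of 117 bases, beside 1843 for Snrpn in replicate 1, and need not mean more molecules. Of 117 stretches of 100 bases in Snurf, all 117 are also in Snrpn, so a Snurf level set apart from Snrpn rests on how shared reads were divided. Snurf was the only member whose counts were marked as shared, by a posterior standard deviation of 1% of the count or more. Snrpn shares these reads but was not marked. Its posterior standard deviations of 27.0 and 27.9 were 0.207% and 0.217% of its larger counts.

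Snrpn stood at 345 TPM in one library, replicate 1, and 323 TPM in the other (334 ± 15.1 TPM), above 99.5% of protein-coding genes. The second table gave 514 and 494 TPM. The level ran above that of the other Sm core genes in both libraries. Snrpb, which encodes the paralogous SmB proteins, had 44.0 and 46.5 TPM, so Snrpn was 7.83 times Snrpb in replicate 1 and 6.94 times in replicate 2. In the second table the ratio was 7.0 and 6.08. Of the 9 genes of the Sm core and its assembly factors, Snrpb was the highest and Snrpg was next at 31.3 TPM, while the assembly factor Gemin2 was the lowest at 4.22 TPM. Adding Snurf and Gm38393 to Snrpn gave 17085 and 16801 counts in the gene table and 15800 and 15552 in the second table. In counts, this sum avoids dividing the reads among these genes. The same sum in TPM was 1262 and 1161 in the gene table and 605 and 581 in the second. It still depends on how the reads were divided, because the counts of each gene are taken per its own effective length.

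The tables named opposite leading transcripts of Snrpn. In the first transcript table Snrpn-201, from the start nearest to Snurf, made up 93.4% of the gene's TPM in replicate 1 and 95.1% in replicate 2 (94.2% ± 1.20, SD, n = 2). Snrpn-202, from the start farther upstream, made up 6.61% and 4.92%. In the second table Snrpn-202 had 513 and 493 TPM and Snrpn-201 had 0.593 and 0.304 TPM, a share of 0.115% and 0.0616%. The libraries thus gave like shares within a table, and the order of the transcripts reversed between tables. Of the 1833 stretches of 100 bases in Snrpn-201, 79 are not in Snrpn-202, and of the 1977 in Snrpn-202, 223 are not in Snrpn-201. These numbers compare the 2 Snrpn transcripts alone. Gm38393 also holds 343 stretches of Snrpn, and how many of the 79 are among them was not counted. The stretches that tell these starts apart are therefore few beside the shared run of 1853 bases. Which start was used could not be read from these tables.

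**Figure D2:**
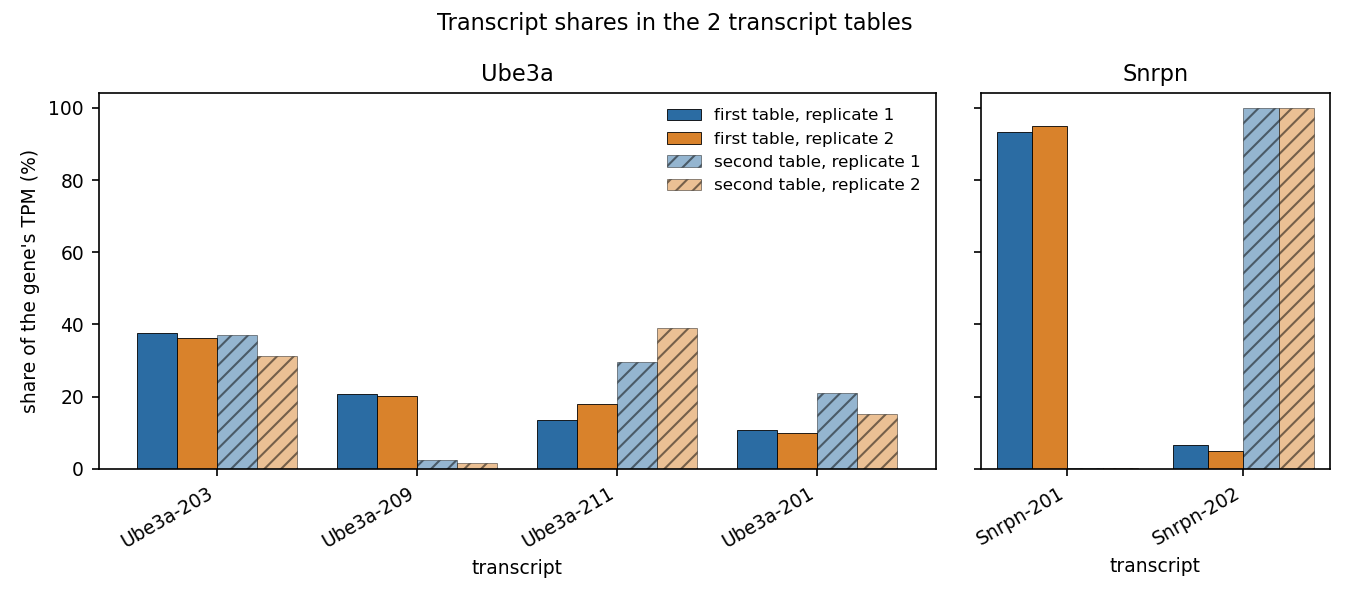
Share of a gene's TPM (%) taken by each transcript of Ube3a (left) and Snrpn (right) with at least 5% in any library or table, with bars from 0, solid for the first transcript table and hatched for the second, 1 colour per library. Snrpn-201 stands above 93% in the first table and near 0 in the second, while Ube3a-203 lies between 31.2% and 37.7% in both.

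Gm38393, whose span of chr7:59974149-60005064 overlaps Snrpn and the annotated start of Snhg14, had 29.4 and 28.7 TPM. The second table gave 90.8 and 87.5 TPM. Its Gm38393-203, a single exon of 3937 bases, held 1729 of 1894 counts in replicate 1. Stretches shared with Snrpn made up 6.42% of the gene's 5339 distinct stretches of 100 bases.

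Snhg14 was a high-level noncoding RNA in both tables. It had 15464 counts in replicate 1 and 15265 in replicate 2 in the gene table, and 24253 and 24364 in the second. The gene spans chr7:59307924-59975759, 668 kb on the minus strand, and holds 15 annotated transcripts, each a piece of it. In the first table the highest was Snhg14-203 at 344 and 325 TPM, or 47.4% and 47.3% of the gene. Next came Snhg14-208 at 132 and 124 TPM and Snhg14-210 at 78.6 and 75.0 TPM. In the second table the highest was Snhg14-206 at 309 and 312 TPM, Snhg14-210 followed at 235 and 224 TPM, and Snhg14-208 had only 11.3 and 9.40 TPM. Snhg14-206 had the widest gap in counts between tables, with 1826 and 1813 counts in the first and 10180 and 10451 in the second. By ratio other pieces differed more. Snhg14-208 had 1593 and 1569 counts in the first and 59.6 and 50.0 in the second. Snhg14-201 had 1.01 in both libraries of the first and 74.8 and 103 in the second. Snhg14-210 went the other way from Snhg14-208, with 2343 and 2345 counts in the first and 4292 and 4158 in the second. In the first table both had posterior standard deviations of 18.3 in replicate 1 and 19.0 in replicate 2. Whether the tables divided the same reads between them was not tested.

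The level of Snhg14 varied along its length. Snhg14-204 had 27.6 counts in replicate 1 and 0 in replicate 2 of the first table. Transcripts that start within 3 kb of the annotated start, Snhg14-211, Snhg14-209 and Snhg14-204, had at most 21.6 TPM in the first table. Distances here run from the GENCODE start. The RefSeq window named for Snhg14 lies farther upstream, at chr7:60450128-60450427, and is also named for Snrpn. Within the snoRNA arrays, Snhg14-207 spans 56 snoRNA copies and had 49.4 and 51.1 TPM, and Snhg14-202 spans 58 copies and had 30.4 and 28.9 TPM. Snhg14-203 starts 280 kb past the annotated start and spans 5 copies, and Snhg14-210 starts 565 kb past it and spans 9. The last pieces, Snhg14-213 and Snhg14-212, start 652 and 657 kb past it. Snhg14-213, whose end overlaps the last part of Ube3a on the other strand, had 7.59 and 6.83 TPM, and Snhg14-212 had 2.00 and 2.13 TPM. In the second table Snhg14-207 had 178 and 196 TPM and Snhg14-202 had 54.3 and 57.3 TPM, so the profile along the gene depends on the table. There Snhg14-213 had 13.1 and 12.4 TPM and Snhg14-212 had 3.06 and 3.50 TPM.

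**Figure D3:**
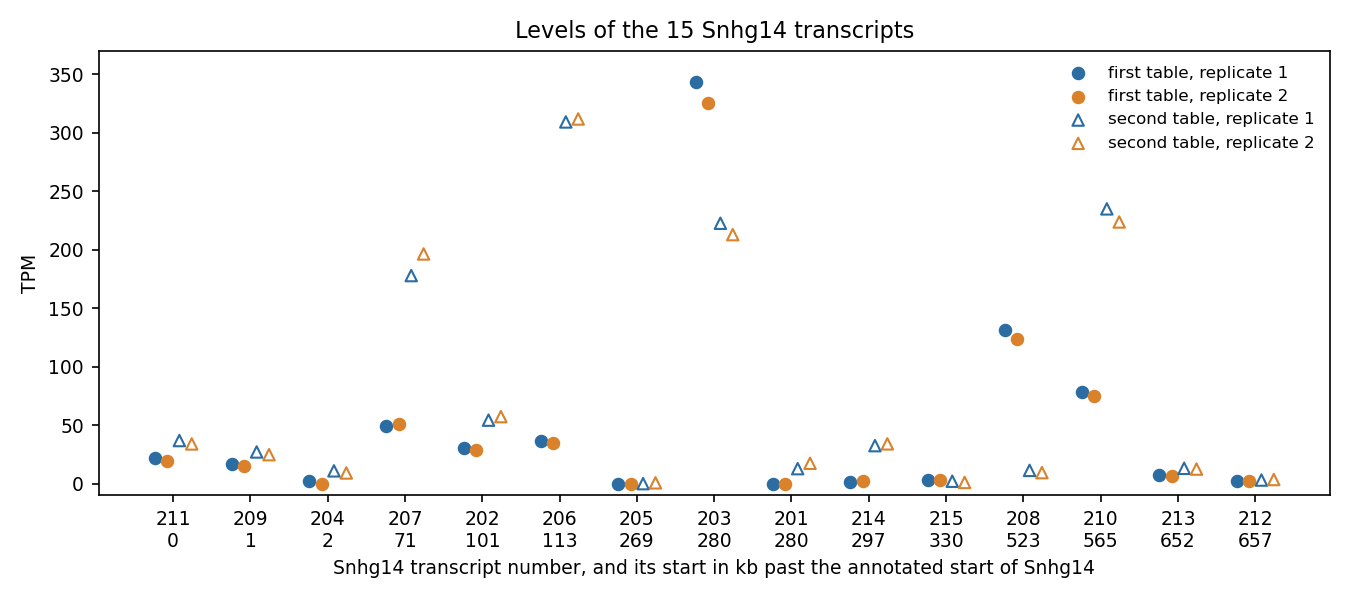
TPM of the 15 Snhg14 transcripts in order of their start, given below each number in kb past the annotated start of the gene, with filled circles for the first transcript table and open triangles for the second, 1 colour per library. The tables part widely at Snhg14-206, where the first gives 36.7 and 34.8 TPM and the second 309 and 312 TPM.

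Ube3a, which encodes the HECT-type ubiquitin ligase E6AP, was measured at 57.9 and 57.1 TPM (57.5 ± 0.594 TPM), above 92.6% of protein-coding genes. The second table gave 80.1 and 94.7 TPM. In TPM, Snhg14 exceeded it 12.5 times in replicate 1 and 12.1 times in replicate 2 in the gene table. The Snhg14 TPM sums all annotated pieces of the gene, so this need not be a ratio of molecules. Per kb of exon, Snhg14 had 593 counts in replicate 1 and 585 in replicate 2, and Ube3a had 266 in each. The related ligases Ube3b and Ube3c had 28.8 and 32.3 TPM and 32.2 and 30.9 TPM. Among 5 relatives, partners and linked genes the highest were the proteasome ubiquitin receptor Psmd4 at 66.1 TPM and the ubiquitin-conjugating enzyme Ube2l3 at 60.8 TPM, and the lowest was Htr2c.

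Most Ube3a counts lay in transcripts with a long reading frame. The 3 transcripts with 2286 to 2610 coding bases held 92.3% of the gene's counts in each library of the first table, and 95.9% and 94.5% in the second. Because short transcripts gain weight when levels are taken per length, the same 3 held 50.0% and 48.6% of the TPM in the first table. The leading one, Ube3a-203, of 13 exons and 9856 bases, held 37.7% and 36.3% of the TPM (37.0% ± 1.00, SD, n = 2). Ube3a-209, of 616 bases with 46 coding, followed at 20.6% and 20.3%, Ube3a-211, of 579 bases, at 13.4% and 17.8%, and Ube3a-201 at 10.7% and 9.78%. The second table gave Ube3a-209 only 2.42% and 1.54%, and Ube3a-211 29.5% and 39.0%. Ube3a-203 therefore led in replicate 1 of that table at 37.1%, and Ube3a-211 led in replicate 2, where Ube3a-203 had 31.2%. The change of order rests on 86.4 and 136 estimated counts of Ube3a-211.

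Counts per kb of the minus-strand entries that overlap Ube3a or Snhg14 were above those of the 2 plus-strand entries there. The annotated spans of Ube3a and Snhg14 overlap by 3613 bases and their exons by 1803 bases on opposite strands. Either gene is overlapped by 6 provisional minus-strand entries with 2.59 to 7.51 TPM and 2 on the plus strand with 0.380 to 0.880 TPM. Per kb of exon, the minus-strand entries had 81.1 counts in replicate 1 and 80.8 in replicate 2, and the plus-strand entries 16.2 and 15.4. Most of the minus-strand counts, 2364 of 3508 in replicate 1, came from 9330162G02Rik, which reaches past the Ube3a start. It had 76.4 and 74.9 counts per kb.

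Of the minus-strand entries, 4 overlap Ube3a. 9330162G02Rik crosses the Ube3a start over 30942 bases and had 2364 and 2317 counts, or 3.73 and 3.48 TPM. Gm44562 had 4.25 and 3.79 TPM, Gm44559 had 7.51 and 5.69 TPM and Gm44560 had 6.35 and 5.81 TPM. Together they had 3008 and 2909 counts, against 5486 and 5478 for Ube3a itself. Between Ube3a and the snoRNA arrays, A230103L15Rik had 4.46 and 5.03 TPM, and Gm44831, farther inside Snhg14, had 2.59 and 2.86 TPM. The plus-strand Gm44830, inside Ube3a, had 5 and 4 counts. Outside both genes, the minus-strand Gm44742 upstream of Ube3a had 16 and 26 counts, or 11.3 and 18.4 per kb, level with the plus-strand entries. All these lie below Ube3a and far below Snhg14 as a whole in TPM. The spike-in profile is named for stranded libraries, but no source used here says whether counting used the strand. Exons overlap in part: 1796 bases of 9330162G02Rik and 2025 bases of Gm44560 lie over Ube3a exons. The gene-table counts of Ube3a, Snhg14 and Gm44560 were whole numbers with posterior standard deviations of 0 in both libraries. Reads were thus not divided between these genes in that table, unlike those of Snurf. Whether the second table kept such reads apart was not tested.

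**Figure D4:**
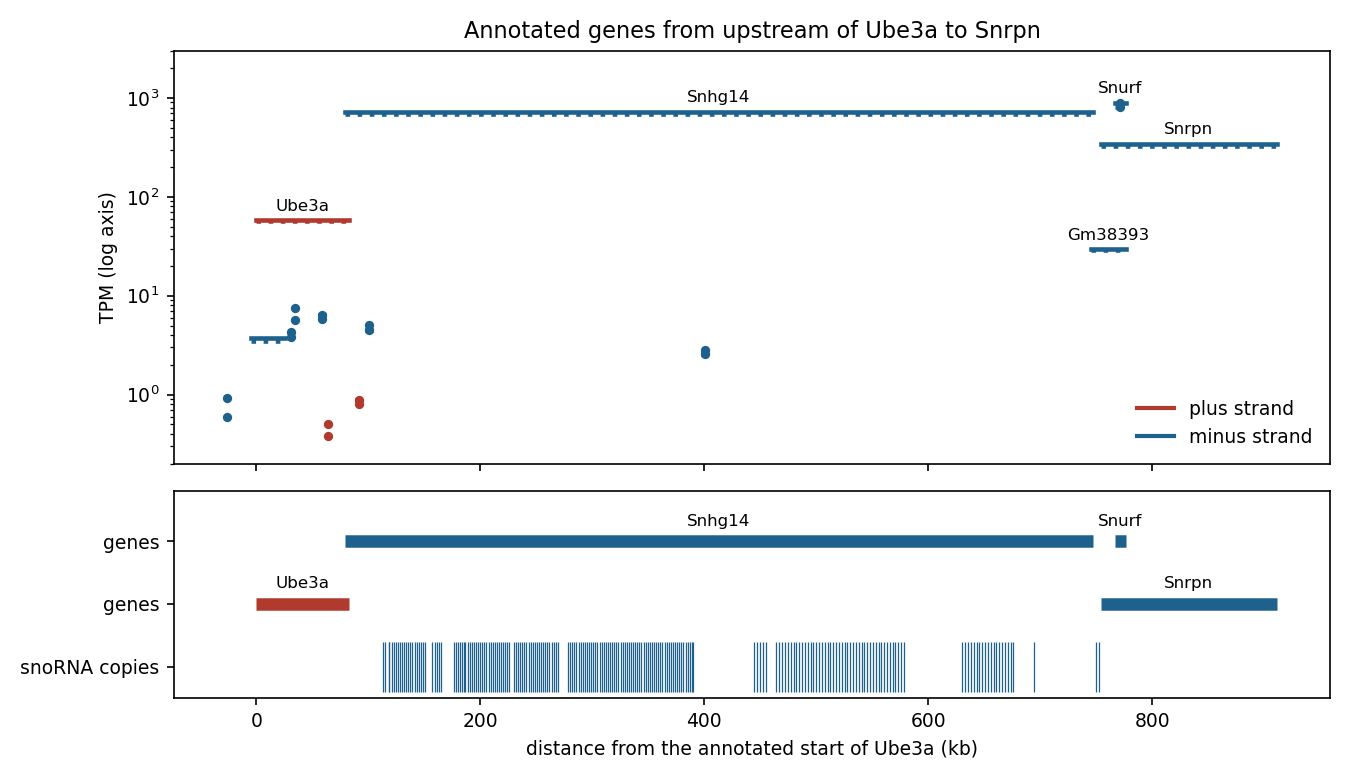
Top, TPM on a log axis of annotated genes from upstream of Ube3a to Snrpn, against distance from the annotated start of Ube3a in kb, red for the plus strand and blue for the minus strand, with a solid and a dotted line or 2 points for the 2 libraries; bottom, spans of 4 members and positions of the snoRNA copies. Minus-strand entries across Ube3a lie between 3.48 and 7.51 TPM, below Ube3a at 57.1 and 57.9 TPM.

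The receptor gene with the stretch complementary to the Snord115 family was present at a low level. Htr2c stood at 9.23 TPM (replicate 1) and 7.70 TPM (replicate 2), a ratio of scaled counts of 0.856 (95% interval 0.775 to 0.945, adjusted exact p = 0.0216) that misses the 1.5-fold minimum set out below. Its transcript Htr2c-201, which holds the site, had 6.29 and 5.66 TPM, and Htr2c-202, the other transcript with it, had 0.200 and 0 TPM. Htr2c-207, which lacks the site, had 2.18 and 1.54 TPM.

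Ndn and Magel2, single-exon genes of the MAGE family beyond Snrpn, differed widely in level although they are neighbours. Ndn, which encodes necdin, a protein of differentiated neurons that restrains cell growth, had 53.5 and 51.0 TPM (52.2 ± 1.75 TPM). Magel2, which encodes a partner of the ubiquitin ligase Trim27 in endosomal protein recycling, had 0.750 and 0.540 TPM (0.645 ± 0.148 TPM) from 70 and 53 counts. Ndn was thus 71.3 times Magel2 in replicate 1 and 94.4 times in replicate 2. In whole tissue, fewer cells with Magel2 RNA and less of it per cell cannot be told apart. Ndn lay just under Ube3a in the gene table with no overlap of the ranges. In the second table Ndn had 82.3 and 80.7 TPM, within the range of Ube3a, so the order of these neighbours was not stable.

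MAGE relatives outside the cluster and the genes of partner proteins were mostly well above Magel2. Of 11, 10 reached 1 TPM in both libraries, led by Maged1 at 208 TPM and Usp7, a deubiquitinase of the Magel2 complex, at 66.2 TPM. The lowest was Ngfr, the neurotrophin receptor that binds necdin, at 0.420 TPM.

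Mkrn3 and Peg12 were the other low genes. Mkrn3, a makorin ring-finger ubiquitin ligase known for holding back puberty, had 0.580 and 0.610 TPM (0.595 ± 0.0212 TPM) from 29 and 32 counts. This lies inside the range of Magel2, so their order was not resolved. Peg12, also called Frat3, which belongs to a family of proteins that bind the kinase GSK3, had 0.150 and 0.220 TPM (0.185 ± 0.0495 TPM) from 8 and 12 counts and was below both in each library. Of 6 relatives and bound kinases, all 6 reached 1 TPM in both libraries. The kinases Gsk3a and Gsk3b led at 79.8 and 64.0 TPM, and the paralogue Frat2 was the lowest at 5.10 TPM. The makorin Mkrn1 had 47.5 and 50.1 TPM.

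The region between Snrpn and Ndn held noncoding transcripts at low to moderate levels. Between the outermost members, 3236 kb apart, 266 genes are annotated, and 16 besides the members reached 1 TPM in at least 1 library. The highest on this stretch was the long noncoding B230209E15Rik at 18.3 and 16.6 TPM. A330076H08Rik had 9.56 and 7.52 TPM, A230057D06Rik had 8.23 and 7.47, Gm9801 had 3.97 and 3.96, A230006K03Rik had 3.46 and 2.73 and Gm44644 had 2.68 and 2.44 TPM. All 6 lie on the minus strand, like Snrpn and Snhg14. The pseudogenes Gm7367, Gm10297 and Ube2nl share reads with other genes: they had 4.97 and 4.01, 3.31 and 3.34, and 0.830 and 1.87 TPM, and Gm7367 was listed at 0 in the second table. The snRNA entry Gm23431 rests on 1 count in replicate 2.

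None of the 8 genes stood apart between the animals. Scaled library sizes set the split of counts for each gene under no difference, the rounded expected counts were tested against it (binomial, exact and two-sided), and a gene was called apart at a Benjamini-Hochberg adjusted p under 0.05 and at least a 1.5-fold difference. Of 18270 genes with a mean count of at least 10, 344 were apart (1.88%), and 0 of the 8 members were, all of which passed the count minimum, Peg12 with a mean of exactly 10. With no fold minimum, 2074 genes passed (11.4%), among them Snhg14 and Snrpn. At an unadjusted exact p under 0.05 there were 3 members, as there were 21.8% of all genes tested. The test compares 2 libraries and covers counting error only, so it says nothing of a condition.

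The 5 abundant members had ratios a little under 1, replicate 2 over replicate 1. Snrpn had 454 CPM (counts scaled to library size) in replicate 1 and 434 in replicate 2, a ratio of 0.954 (95% Clopper-Pearson interval 0.931 to 0.978, adjusted exact p = 0.00284). Snhg14 had 538 and 516 CPM, a ratio of 0.959 (0.938 to 0.981, adjusted exact p = 0.00373). Scaled to the ERCC spike-in totals, Snrpn had a ratio of 0.981 and Snhg14 of 0.985, with adjusted exact p of 0.362 and 0.498. Of 7 members tested in the second table, 0 were apart (1.56% of all genes), and the ratio was 0.956 for Snrpn (adjusted exact p = 0.00456) and 0.982 for Snhg14 (adjusted exact p = 0.246). For Ube3a the ratio was 0.970 (0.934 to 1.01), for Ndn 0.972 (0.930 to 1.02) and for Snurf 0.929 (0.874 to 0.987), with adjusted exact p of 0.370, 0.525 and 0.113.

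The 3 low members allow wide differences. The ratio was 0.737 for Magel2 (0.505 to 1.07), 1.07 for Mkrn3 (0.628 to 1.84) and 1.43 for Peg12 (0.548 to 4.11), so a 1.5-fold difference lies within each interval at this depth. Over the 8 members the median log2 ratio was -0.05, beside -0.00 over all genes tested.

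**Figure D5:**
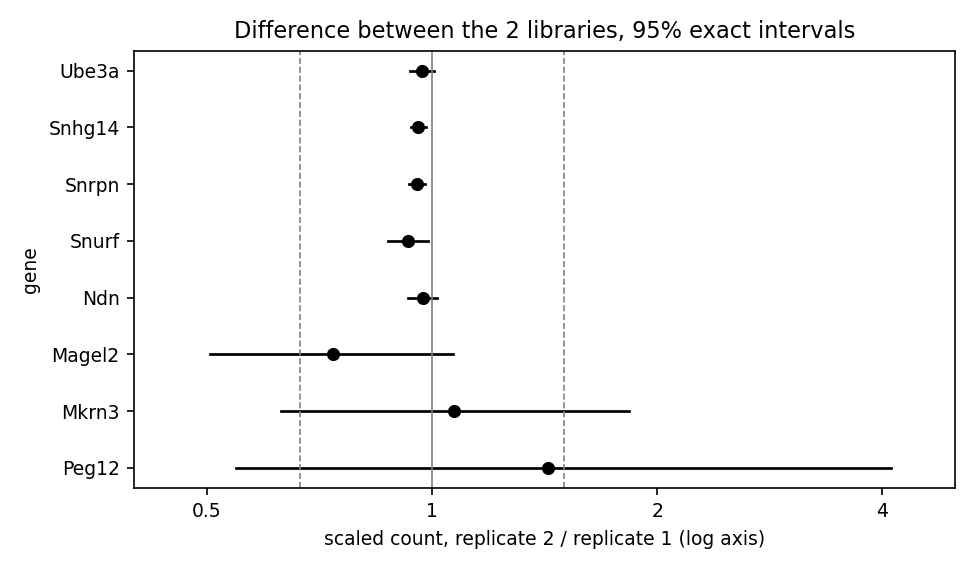
Ratio of scaled counts, replicate 2 over replicate 1, on a log axis for the 8 genes, with 95% exact intervals as bars; the solid line marks no difference and the dashed lines a 1.5-fold difference. The 5 abundant genes lie between 0.929 and 0.972 with intervals inside the dashed lines, and the 3 low genes have intervals that cross 1 and reach past at least 1 dashed line.

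The genes that flank the cluster on the side of Ube3a, from Tubgcp5 to Atp10a, served as a local comparison. Of 10, 9 reached 1 TPM in both libraries. Gabra5, a GABA receptor subunit gene, had 71.1 TPM, and the lowest was Oca2, a pigmentation gene, at 0.200 TPM. Of the 9 tested, 0 were apart, and their median log2 ratio was -0.02. The lists of Sm core, MAGE, makorin and Frat, and Ube3a-linked genes likewise had 0 genes apart among 9, 11, 6 and 5 tested, at the background of 1.88%.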

How the data were processed

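The authors deposited, for each of 2 libraries, a gene table and 2 transcript tables on mm10, per the labels; tools, versions, strand setting and aligner: not given in the sources used here. The deposited expected counts, posterior standard deviations (RSEM-style columns) and TPM come from the gene table and first transcript table, and the estimated counts and TPM of the second (kallisto-style columns) were summed per gene. The deposited percent of a gene's TPM per transcript (IsoPct) gave transcript shares. Identifiers matched 55536 genes of GENCODE M21. Entries that name no gene, mostly ERCC spike-ins, held 0.421% and 0.408% of counts and stayed out.

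Expected counts were rounded and compared between libraries by an exact binomial test (scipy 1.17.1) against edgeR 4.0.16 TMM library sizes, with p-values adjusted (Benjamini-Hochberg) across genes whose counts averaged 10 or more. The script was tested on simulated data. With 1 library an animal no dispersion can be estimated, so edgeR tested nothing. Alternatives used DESeq2 1.42.0 size factors, ERCC totals, no count minimum, no fold minimum and the second table. Others used genes not marked as shared, other TPM thresholds and each library alone. Intervals are Clopper-Pearson and cover counting error only, since each animal gave 1 library. Reads carry no molecular identifiers here, so copies of 1 molecule could not be told apart and the intervals may be too narrow.

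Named genes are the 8 members, their transcripts with an IsoPct of at least 5, annotated genes between the outermost members at 1 TPM or more in either library, and of each list the 2 highest, the lowest and any apart; others were named after their values were seen. One gene that this rule names is not reported here. Members and lists were chosen with earlier results of these data known. Sequences come from GENCODE M21 transcripts and RefSeq windows on GRCm38.p6, in which all 8 symbols matched. Proteins were not used here.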

Additional observations from a re-analysis of the deposited data

How the results depend on the processing

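No paired analysis was possible because the 2 libraries form 1 group. In the second transcript table the mean levels were 87.4 TPM for Ube3a, 1148 for Snhg14, 504 for Snrpn, 0 for Snurf, 81.5 for Ndn, 0.929 for Magel2, 0.936 for Mkrn3 and 0.353 TPM for Peg12, where the median coding gene with at least 1 TPM was 1.69 times its gene-table level. The share of Ube3a-203 there was 34.2% and that of Snrpn-201 was 0.0885%. The cause was not tested. Each library alone gave 57.1 to 57.9 TPM for Ube3a, 688 to 726 for Snhg14, 323 to 345 for Snrpn, 810 to 888 for Snurf, 51.0 to 53.5 for Ndn, 0.540 to 0.750 for Magel2, 0.580 to 0.610 for Mkrn3 and 0.150 to 0.220 TPM for Peg12, with shares of 36.3% to 37.7% for Ube3a-203 and 93.4% to 95.1% for Snrpn-201.

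The number of members at the TPM threshold in both libraries was 7 at 0.5 TPM, 5 at 2 TPM and 4 in the second table. Genes apart numbered 356 with DESeq2 size factors, 378 with ERCC totals, 341 with no count minimum, 317 in the second table and 2074 with no fold minimum. Among the 16346 genes not marked as shared, which still include Snrpn, 214 were apart, with fewer genes tested. Members apart numbered 2 with no fold minimum and 0 under the other settings run. With DESeq2 size factors the adjusted exact p was 0.0346 for Snrpn and 0.05003 for Snhg14. Leaving out a library leaves no comparison between libraries. Of all alternatives, 13 moved a level or share by more than 1 SD between the libraries, or a count by over 1.5 times, and 32 did not. The 32 include each library alone, which could not move by this rule. With 2 libraries, each lies less than 1 SD from their mean. In the second table every level and share listed above moved. Depth limits Magel2, Mkrn3 and Peg12 most, and 3 counts correspond to 0.104 and 0.101 CPM in the 2 libraries.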

Other observations

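Of 798 protein-coding genes with a mean of at least 100 TPM in the gene table, 4 were listed at 0 in the second transcript table in both libraries: Snurf, mt-Atp8, Rpl10-ps3 and Rps12-ps3. They were picked out after their values were seen. The mitochondrial mt-Atp8 had 2460 and 2187 TPM in the gene table at an effective length of 105 bases, and Snurf had 888 and 810 TPM at an effective length of 117 bases. Rpl10-ps3 had 163 and 156 TPM, and Rps12-ps3 had 98.3 and 103 TPM, at effective lengths of 669 and 395 bases. A level above 100 TPM for such a gene therefore depends on the table it is read from, as it does for Snurf in the cluster.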
